A study of Mus musculus with 3 samples.

Results

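The promoters of 47 ribosomal protein genes, 28 of the large ribosomal subunit and 19 of the small one, were followed as a set through 3 ATAC-seq libraries of mouse oligodendrocyte lineage cells. The genes were taken from a fixed list of names, and they are 47 of the 21887 protein-coding genes that RefSeq annotates in GRCm38.p6, the assembly with the mm10 coordinates of the peak tables. For each gene and library the strongest peak (highest −log10 q) within 1000 bp of either annotated end of the gene was taken, and is called its gene-end peak. The values compared were the pileup at the peak's summit, scaled to 1000000 fragments of the library (fragments per 1000000, FPM), the width of the peak and the position of its summit. The choice of genes uses no measured value, though the list was proposed with earlier results of these data known. The peak of each gene was picked by its measured −log10 q, in each library separately.

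ATAC-seq cuts and tags open chromatin with a transposase, so a peak marks DNA that was accessible. Seh1cKO cells, which carry a conditional knockout of Seh1 (gene symbol Seh1l, a nuclear pore component), were profiled after 1 day of the thyroid hormone triiodothyronine (T3) at 60 nM. They were set against control cells after the same 1 day of T3 at 60 nM, and those in turn against control progenitors, whose sample title ends in the letters DO, read here as the stage before T3. All cells came from C57BL/6 mice of postnatal day 4 to 7, and the controls are labelled wild type. Cortical cells were passed over a plate coated with an antibody to GalC and then collected on one coated with an antibody to O4, so all 3 groups share that selection. Progenitors were grown with PDGF-AA, bFGF, NT3 and CNTF, and PDGF-AA, bFGF and NT3 were withdrawn when T3 was added. The 2 day 1 groups therefore differ from progenitors in T3 and in growth factors, which cannot be told apart. The promoter that drives the recombinase in Seh1cKO mice, and the number of animals behind each library, are not stated in the labels.

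There was 1 library per group, made from 50000 cells, so differences could not be set against a spread between replicates, and no test between groups was run. Depth was 10845533 fragments for Seh1cKO cells, 18260883 for control day 1 cells and 23403600 for progenitors, with 46113, 118441 and 108788 peaks called. The lowest pileup called was 6 fragments in Seh1cKO cells, 8 in control day 1 cells and 9 in progenitors, that is 0.553, 0.438 and 0.385 FPM. Of 15 oligodendrocyte lineage genes, 10 had a gene-end peak in Seh1cKO cells, 13 in control day 1 cells and 11 in progenitors. Olig1, Olig2, Sox10 and Pdgfra were among those called in every library, and Cspg4 and Mag had no gene-end peak in any. Of the other markers, in the same order, 7, 7 and 7 of 8 astrocyte genes, 5, 7 and 8 of 9 neuron genes, 1, 2 and 4 of 8 microglia genes and 2, 4 and 3 of 8 endothelial or mural genes had a gene-end peak. An open promoter is no measure of expression, so these counts do not give the makeup of the cultures. Seh1l had a gene-end peak of 47 fragments in Seh1cKO cells, 70 in control day 1 cells and 77 in progenitors. Which part of Seh1l was removed is not stated in the labels, so this peak says nothing of the knockout.

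Ribosomal proteins and ribosomal RNA together form the small subunit, which decodes the mRNA, and the large subunit, which makes the peptide bond. Each protein is normally needed in equal number, and the genes are known to be transcribed at high level in nearly all cell types. In mammals these promoters usually lack a TATA box and their mRNAs begin with a C followed by a run of pyrimidines, the terminal oligopyrimidine (TOP) tract through which the mTOR pathway controls their translation. Oligodendrocytes draw heavily on protein synthesis when they build myelin, and mTOR signalling is known to act in their differentiation.

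The members differ in sequence at the annotated start of transcription, which was not checked against measured mRNA ends. Shown first are 12 promoters that carry the results below. Each run is 100 bases, from 80 before the annotated start to 20 from the start onward, 5′ to 3′ on the strand of the gene, taken from RefSeq sequences of GRCm38.p6, with the first 5 transcribed bases in capitals. Rps21, Rps6, Rps18 and Rpl15 are shown because their annotated start is a C followed by 4 pyrimidines.
Rps21: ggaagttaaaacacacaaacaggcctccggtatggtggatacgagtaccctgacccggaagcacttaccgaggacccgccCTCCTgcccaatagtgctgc
Rps6: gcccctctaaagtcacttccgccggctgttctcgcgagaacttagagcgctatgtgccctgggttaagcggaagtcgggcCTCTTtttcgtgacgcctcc
Rps18: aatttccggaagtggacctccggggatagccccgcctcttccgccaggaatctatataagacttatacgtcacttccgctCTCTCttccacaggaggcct
Rpl15: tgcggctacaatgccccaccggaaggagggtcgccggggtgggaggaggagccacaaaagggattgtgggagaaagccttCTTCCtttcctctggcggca
Rpl37 and Rps19 are shown because they had, with Rpl15, the 3 highest gene-end peaks in control day 1 cells. Rpl6 is shown because it had the second lowest gene-end peak.
Rpl37: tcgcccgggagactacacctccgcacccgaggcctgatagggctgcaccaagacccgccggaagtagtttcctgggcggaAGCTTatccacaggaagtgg
Rps19: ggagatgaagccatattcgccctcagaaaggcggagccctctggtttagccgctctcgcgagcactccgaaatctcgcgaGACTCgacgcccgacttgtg
Rpl6: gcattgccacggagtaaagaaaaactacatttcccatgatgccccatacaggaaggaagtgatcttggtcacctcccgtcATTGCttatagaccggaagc
Rpl34 is shown for a high and Rpl12 and Rps13 for the 2 lowest ratios of Seh1cKO to control day 1 cells.
Rpl34: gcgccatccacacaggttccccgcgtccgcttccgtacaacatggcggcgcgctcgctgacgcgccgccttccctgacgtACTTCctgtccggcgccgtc
Rpl12: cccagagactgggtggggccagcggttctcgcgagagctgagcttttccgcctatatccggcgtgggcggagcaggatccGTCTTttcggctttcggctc
Rps13: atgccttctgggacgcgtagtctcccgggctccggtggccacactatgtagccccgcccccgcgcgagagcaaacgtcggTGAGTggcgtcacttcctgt
Rps2 and Rpl22 are shown because the rule based on gene ends did not take the peak at their start.
Rps2: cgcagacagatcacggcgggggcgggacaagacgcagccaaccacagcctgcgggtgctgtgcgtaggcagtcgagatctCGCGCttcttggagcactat
Rpl22: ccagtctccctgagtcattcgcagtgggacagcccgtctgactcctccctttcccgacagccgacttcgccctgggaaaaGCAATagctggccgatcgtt
In GRCm38.p6 coordinates these runs lie, in the order printed, with Rps21 at chr2:180257299-180257398 on the plus strand, Rps6 at chr4:86857348-86857447 on the minus strand, Rps18 at chr17:33955646-33955745 on the minus strand, Rpl15 at chr14:18270967-18271066 on the minus strand, Rpl37 at chr15:5116533-5116632 on the plus strand and Rps19 at chr7:24884512-24884611 on the plus strand. The others lie with Rpl6 at chr5:121204421-121204520 on the plus strand, Rpl34 at chr3:130730379-130730478 on the minus strand, Rpl12 at chr2:32961632-32961731 on the plus strand, Rps13 at chr7:116334171-116334270 on the minus strand, Rps2 at chr17:24719983-24720082 on the plus strand and Rpl22 at chr4:152325646-152325745 on the plus strand.

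Nearly all of these genes had an open gene end in every library. A gene-end peak was called for 46 of 47 members in Seh1cKO cells, 46 in control day 1 cells and 46 in progenitors, a share of 97.9% each time (exact Clopper-Pearson 95% interval 88.7 to 99.9, counting error only). Among all 21887 protein-coding genes the shares were 56.2% in Seh1cKO cells, 63.2% in control day 1 cells and 62.4% in progenitors. The member without a call was the same gene in all 3 libraries, Rps2, a small-subunit protein at the mRNA entry side of the ribosome. In 45 of the 46 called members the 3 libraries' peaks overlapped at 1 site, against 90.8% of the 11851 protein-coding genes called in all 3 libraries. The exception was Rpl22, a large-subunit protein first known for binding a viral RNA.

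The annotated start of transcription gave a fuller count than the gene ends did. A start was listed for 39 members in the RefSeq promoter table, and the other 8 (Rpl3, Rpl7, Rpl8, Rpl30, Rpl32, Rps14, Rps20 and Rps29) had no entry there. All 39 had a peak that covered the start itself, in Seh1cKO cells, in control day 1 cells and in progenitors alike. Of the 17492 protein-coding genes with a listed start, 47.0% had a peak over it in Seh1cKO cells, 48.7% in control day 1 cells and 48.0% in progenitors. These 39 include Rps2 and Rpl22.

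For 5 members the gene-end peak was not the peak at the start. In Rps2 (chromosome 17, 24718121 to 24721927) the annotated gene runs between positions −1942 and 1864 from the listed start, so neither window reaches the start. Its start-site peak held 47 fragments in Seh1cKO cells, 55 in control day 1 cells and 66 in progenitors, or 4.33, 3.01 and 2.82 FPM. The peak's near edge lay 1587 bp from the nearest gene end in Seh1cKO cells, 1505 bp in control day 1 cells and 1585 bp in progenitors. The missing call of Rps2 by gene ends therefore stands beside a called peak over its listed start in every library.

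In Rpl22 (chromosome 4, 152324436 to 152334082) the gene-end rule took weak peaks near the far end of the gene, of 10 fragments in Seh1cKO cells, 17 in control day 1 cells and 18 in progenitors, while the peak over its start held 69, 91 and 76 fragments in the same order. In FPM, the start-site peak of Rpl22 stood at 6.36 in Seh1cKO cells, 4.98 in control day 1 cells and 3.25 in progenitors, among the higher members rather than at the bottom of the set. The weak Rpl22 peaks were also the nearest to the bound from inside, with a gap of 889 bp in Seh1cKO cells and 904 bp in control day 1 cells. Rpl22 therefore enters every count by gene ends with values that do not describe its promoter.

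Rpl18, Rpl19 and Rpl4 were the other 3. Rpl18, a large-subunit protein, had 39 fragments in Seh1cKO cells, 85 in control day 1 cells and 58 in progenitors at the lower end of its annotated gene, and 31, 33 and 34 fragments at its listed start, from which that gene end lies at −2604 bp. Rpl19, which takes part in bridges between the subunits, had 21, 28 and 29 fragments in its gene-end peak, which covers an annotated end of the calcium channel gene Cacnb1 at 98023034, against 31, 38 and 36 at its start. Rpl4, whose protein lines part of the exit tunnel of the nascent peptide, had 23, 33 and 43 fragments in its gene-end peak, which covers the lower end of Snapc5, and 13, 15 and 21 at its start, where the peak also covers an end of Zwilch. The start-site ratio of Seh1cKO to control day 1 cells was 1.58 for Rpl18 (exact 95% interval 0.937 to 2.66), 1.37 for Rpl19 (0.826 to 2.27), 1.46 for Rpl4 (0.639 to 3.29), 1.28 for Rpl22 (0.920 to 1.77) and 1.44 for Rps2 (0.954 to 2.16). All 5 intervals hold 1. The Cacnb1 end lies 1031 bp from the nearest end of Rpl19, outside its window, so Rpl19 is counted below among members with no neighbour. For Rpl18 the direction differs between its 2 peaks, since its gene-end peak had a ratio of 0.773 (0.515 to 1.14).

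**Figure D1:**
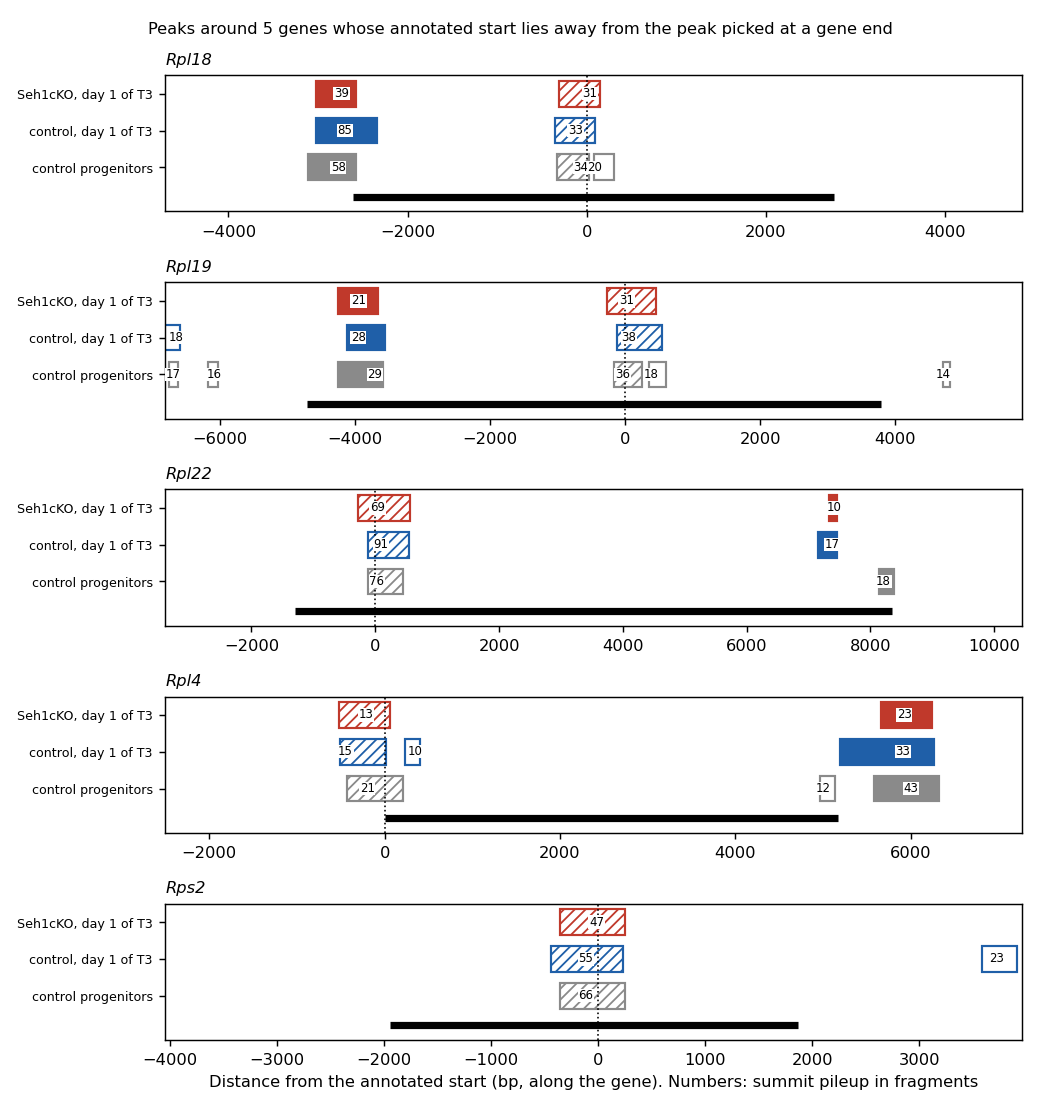
Called peaks around Rpl18, Rpl19, Rpl22, Rpl4 and Rps2 in the 3 libraries, against distance from the annotated start in bp along the gene (black bar: annotated gene; filled boxes: gene-end peak; hatched boxes: start-site peak; numbers: summit pileup in fragments). Every one of the 5 genes has a hatched peak over its start in all 3 libraries, and no box of Rps2 is filled.

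By level, the members were spread over most of the range of called genes. The median pileup of the 46 called members was 3.73 FPM in Seh1cKO cells, 3.20 in control day 1 cells and 2.24 in progenitors. Over the 11851 protein-coding genes called in all 3 libraries the medians were 2.95, 2.90 and 2.09 in the same order. Members ranged between 0.922 and 9.40 FPM in Seh1cKO cells, between 0.931 and 10.1 in control day 1 cells and between 0.769 and 5.90 in progenitors. Ranked among those 11851 genes, the median member stood at percentile 63.2 in Seh1cKO cells, 55.8 in control day 1 cells and 54.6 in progenitors, with 28, 27 and 26 members above the median gene and 3, 4 and 5 in the top 10%.

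The highest gene-end peaks belonged to the same few genes. Rpl37, a small protein of the large subunit, had 93 fragments in Seh1cKO cells, 185 in control day 1 cells and 116 in progenitors, or 8.57, 10.1 and 4.96 FPM. Rps19, the small-subunit protein most often mutated in human Diamond-Blackfan anaemia, had 101, 173 and 138 fragments, or 9.31, 9.47 and 5.90 FPM in the same order. Rpl15, needed for maturation of the large subunit, had 102, 171 and 137 fragments, or 9.40, 9.36 and 5.85 FPM. For Rps19 and Rpl15 the Seh1cKO and control day 1 values lie close together, and in FPM progenitors are lowest for all 3 genes. By fold enrichment Rps19 stood at 13.2 in Seh1cKO cells, 12.8 in control day 1 cells and 13.3 in progenitors, so progenitors were not lowest for Rps19 on that scale. Rps29 had 6.18 FPM in Seh1cKO cells, 8.27 in control day 1 cells and 5.08 in progenitors. Rps21 had 6.18, 5.91 and 4.61 FPM. Both are small proteins of the small subunit.

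At the low end, Rpl6, a large-subunit protein, had 11 fragments in Seh1cKO cells, 19 in control day 1 cells and 22 in progenitors, or 1.01, 1.04 and 0.940 FPM. Rpl8, which lies close to the site of peptide bond formation, had 1.38 FPM in Seh1cKO cells, 1.15 in control day 1 cells and 1.37 in progenitors. Rps7, a small-subunit protein also known to bind Mdm2, had 2.03, 1.53 and 1.03 FPM. These 3, with Rpl22 and Rpl19, were the 5 lowest in control day 1 cells, and for the last 2 the start-site peaks were higher than the gene-end ones. By subunit, the 28 large-subunit members had medians of 3.41, 3.18 and 2.05 FPM and the 18 called small-subunit members 4.20, 3.48 and 2.46 FPM, with ranges that overlap in each library.

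**Figure D2:**
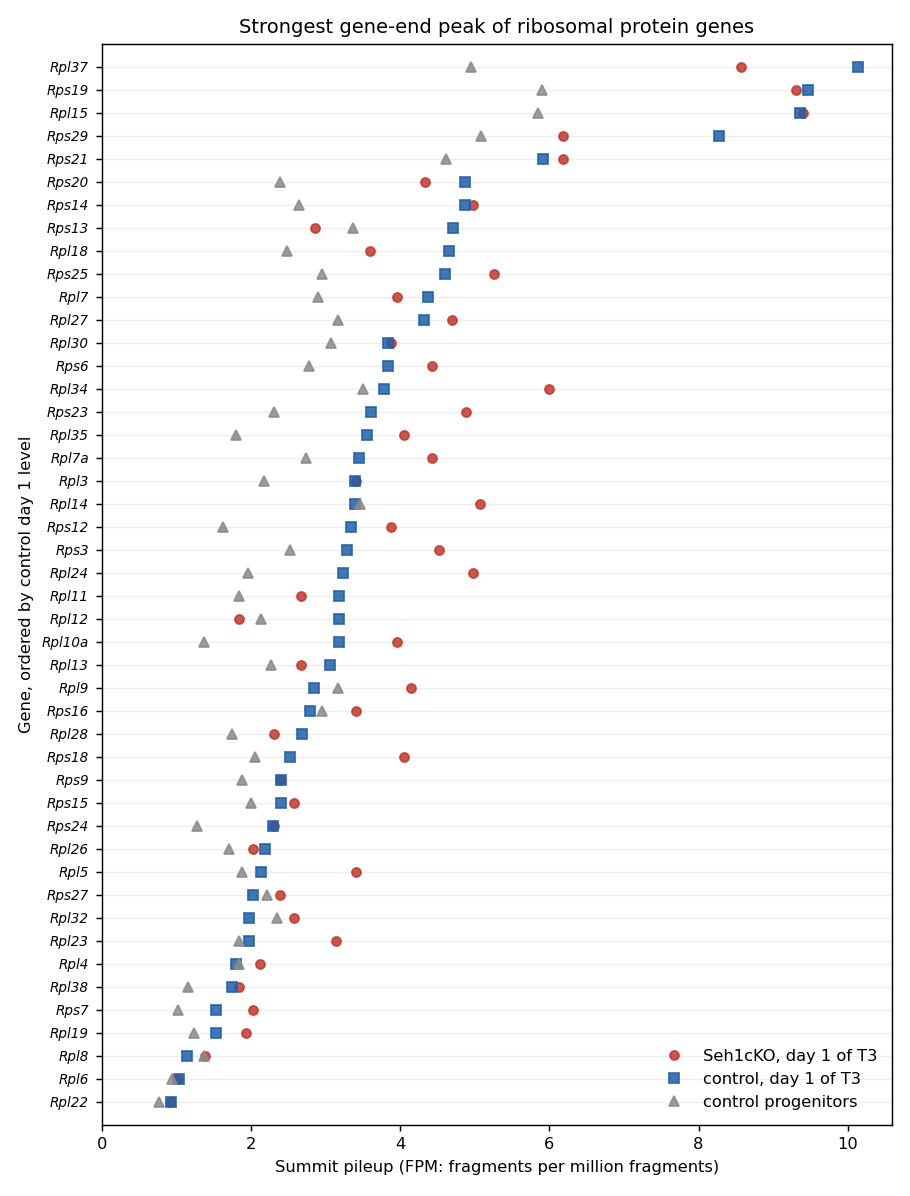
Summit pileup of the gene-end peak of 46 ribosomal protein genes, in FPM (horizontal axis), by gene in order of the control day 1 level (red circles: Seh1cKO day 1; blue squares: control day 1; grey triangles: control progenitors). Progenitors lie lowest for most genes, and the day 1 libraries reach 9.40 and 10.1 at the top.

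Seh1cKO cells and control cells after 1 day of T3 had similar pileups in the gene-end peaks of these genes. The median ratio of Seh1cKO to control day 1 cells was 1.08 over the 46 members and 1.00 over the 12052 protein-coding genes called in both, the members' being 0.11 on the log2 scale. Summed over members, 1909 fragments in Seh1cKO cells stood against 3011 in control day 1 cells, an FPM ratio of 1.07 (exact conditional 95% interval 1.01 to 1.13, counting error only). The ratio was above 1 in 31 members, 67.4%, and in 50.3% of all genes. Its lower and upper quartiles over members were 0.977 and 1.28. For single members the interval held 1 in 40 of 46, lay above 1 in 4 and below 1 in 2. With only the members that have no other gene's end in their windows the median ratio was 1.02. With the start-site peaks of the 39 members with a listed start it was 1.16, or 1.15 relative to the all-gene median of start-site ratios.

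A gene was counted as called where the ratio was at least 1.5 in either direction. Higher in Seh1cKO cells by this measure were 5 of 46 members, beside 9.04% of all genes, and lower were 2, beside 8.69% of all genes. Relative to the all-gene median the members' counts were again 5 and 2, beside 8.92% and 8.75%. For gene-end peaks, these shares of members are near the background in both directions. By its start-site peak Rpl18 would also be called higher, with a ratio of 1.58. Counts by start-site peaks over all members are not given.

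The 5 higher members were Rps18, Rpl5, Rpl23, Rpl34 and Rpl24. Rps18, a protein of the head of the small subunit, had 44 fragments in Seh1cKO cells and 46 in control day 1 cells, or 4.06 and 2.52 FPM, a ratio of 1.61 (1.04 to 2.49). Rpl34 had 65 and 69 fragments, or 5.99 and 3.78 FPM, a ratio of 1.59 (1.11 to 2.26). Rpl24, the gene altered in the Belly spot and tail mouse, had 54 and 59 fragments, or 4.98 and 3.23 FPM, a ratio of 1.54 (1.05 to 2.27). In these 3 the interval lies above 1, but it does not allow for retained duplicates or for peaks picked in each library. Rpl5, which with Rpl11 joins the small RNA of the large subunit and can bind Mdm2, had 37 and 39 fragments and a ratio of 1.60 (0.991 to 2.57). Rpl23 had 34 and 36 fragments and a ratio of 1.59 (0.965 to 2.61). For these last members the interval holds 1. Rpl11, the partner of Rpl5, had 29 and 58 fragments and a ratio of 0.842 (0.520 to 1.34), on the other side of 1.

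The 2 lower members were Rpl12 and Rps13. Rpl12, which forms part of the base of the stalk that recruits translation factors, had 20 fragments in Seh1cKO cells and 58 in control day 1 cells, or 1.84 and 3.18 FPM, a ratio of 0.581 (0.331 to 0.980). Rps13, a small-subunit protein near the contact of the 2 subunits, had 31 and 86 fragments, or 2.86 and 4.71 FPM, a ratio of 0.607 (0.389 to 0.925). In progenitors they stood at 2.14 FPM (1.59 to 2.82) for Rpl12 and 3.38 (2.67 to 4.21) for Rps13. These intervals overlap those of Seh1cKO cells, 1.13 to 2.85 for Rpl12 and 1.94 to 4.06 for Rps13. The fold enrichment of Rpl12 was 6.72 in Seh1cKO cells against 10.6 in control day 1 cells, and that of Rps13 9.30 against 17.3. It is computed from the same summit pileups, so it is not a separate measure. Rps29 and Rpl18 followed, with ratios of 0.747 (0.552 to 1.00) and 0.773 (0.515 to 1.14). The intervals of the 46 genes were not corrected for their number.

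Control day 1 cells had higher pileups than progenitors at most members, and so did most genes. The median ratio of control day 1 cells to progenitors was 1.37 over the 46 members and 1.39 over the 12633 genes called in both, or 0.46 against 0.47 on the log2 scale. Summed over members, 3011 fragments in control day 1 cells stood against 2698 in progenitors, an FPM ratio of 1.43 (1.36 to 1.51). The ratio was above 1 in 39 members, 84.8%, and in 86.2% of all genes. By fold enrichment over the local background the median ratio of members was 1.02, and that of all genes 1.10. Divided by the median of genes called in all 3 libraries, the members' median ratio was 0.991.

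By the 1.5-fold measure, 19 of 46 members were higher in control day 1 cells than in progenitors, beside 38.7% of all genes, and 0 were lower, beside 1.65%. Relative to the all-gene median, 1 member was higher, beside 7.03% of all genes, and 4 were lower, beside 9.27%. The members' shares were near those of all genes or below them in each of these counts.

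The 4 highest ratios were those of Rpl10a, Rps12, Rpl37 and Rps20. Rpl10a had 58 fragments in control day 1 cells and 32 in progenitors, or 3.18 and 1.37 FPM, a ratio of 2.32 (1.48 to 3.70). Rps12, a protein of the small-subunit head, had 61 and 38 fragments, or 3.34 and 1.62 FPM, a ratio of 2.06 (1.35 to 3.17). Rpl37 had a ratio of 2.04 (1.61 to 2.60). Rps20 had 89 and 56 fragments and a ratio of 2.04 (1.44 to 2.90). The intervals of Rpl10a, Rpl37 and Rps20 lie above the all-gene median of 1.39. By fold enrichment the ratios were 1.36 for Rpl10a, 1.67 for Rps12, 1.34 for Rpl37 and 1.35 for Rps20.

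The 4 lowest ratios were those of Rpl32, Rpl8, Rpl9 and Rps27, the members that were lower relative to all genes. Rpl32, often used as a reference gene in mRNA assays, had 36 fragments in control day 1 cells and 55 in progenitors, or 1.97 and 2.35 FPM, a ratio of 0.839 (0.535 to 1.30). Rpl8 had 21 and 32 fragments and a ratio of 0.841 (0.461 to 1.5). Rpl9 had 52 and 74 fragments and a ratio of 0.901 (0.619 to 1.30), and Rps27, a small-subunit protein with a zinc-binding fold, 37 and 52 fragments and a ratio of 0.912 (0.582 to 1.42). All 4 intervals hold 1. Those of Rpl32 and Rpl9 end below the all-gene median.

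**Figure D3:**
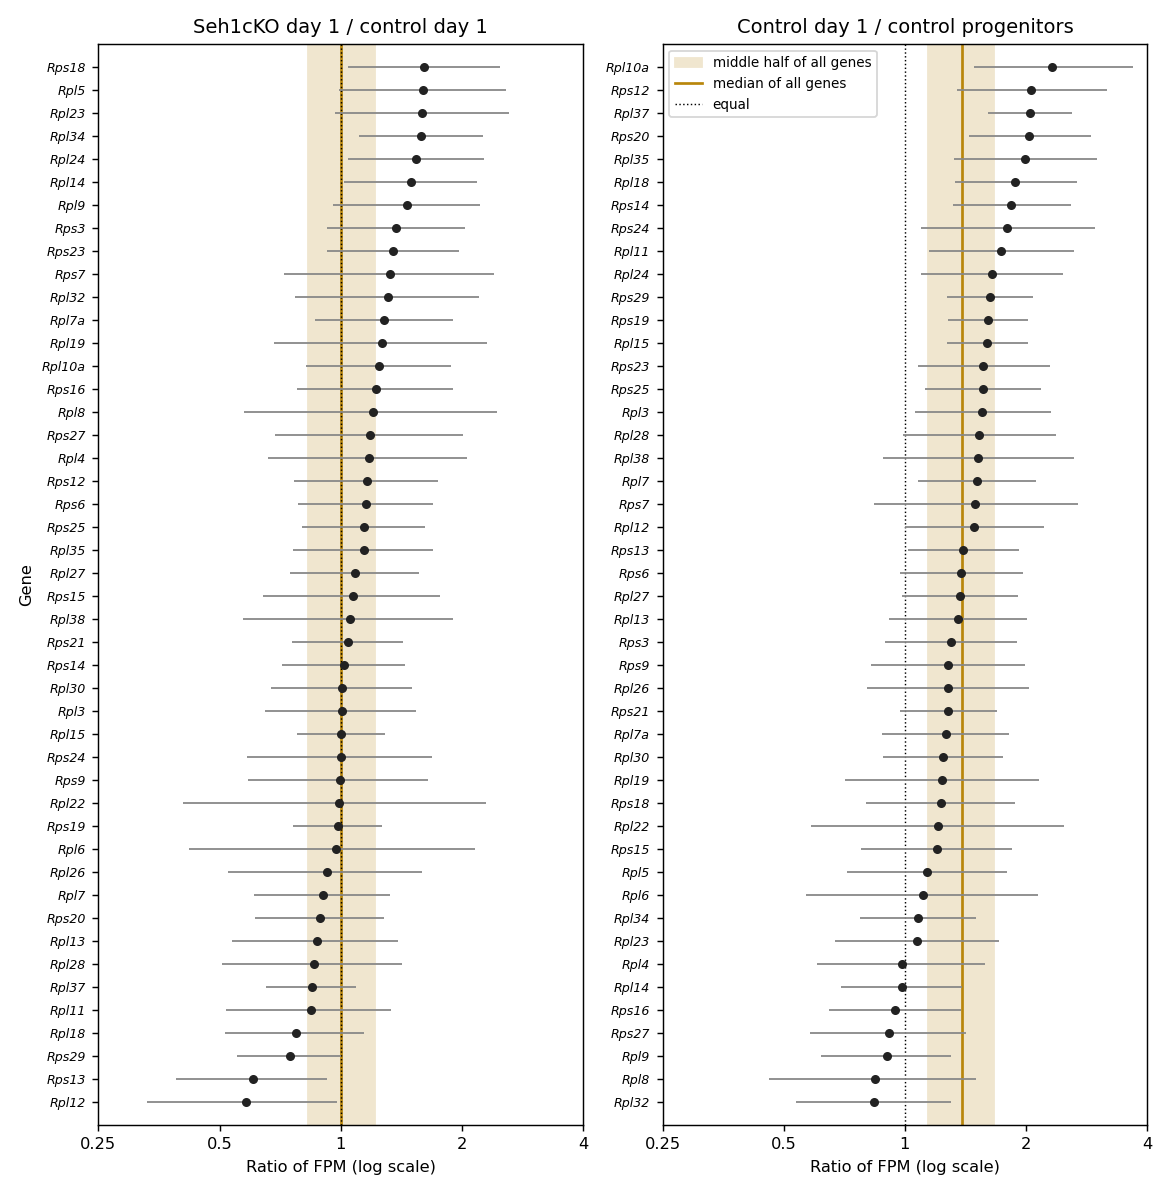
Ratio of FPM on a log scale for each of 46 ribosomal protein genes, Seh1cKO over control day 1 on the left and control day 1 over control progenitors on the right (points: ratio; bars: exact 95% counting interval; band and gold line: middle 50% and median of all genes; dotted line: equal). Members lie around the gold line in both panels, at 1.00 on the left and 1.39 on the right.

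By median, peaks were narrowest in Seh1cKO cells and widest in control day 1 cells. The median width of the members' gene-end peaks was 642 bp in Seh1cKO cells, 751 bp in control day 1 cells and 672.5 bp in progenitors, and that of all genes called in 3 libraries was 611, 729 and 697 bp. Of 46 members, 13 had a wider peak in Seh1cKO than in control day 1 cells, with a median width ratio of 0.854 for members and 0.856 for all genes. In control day 1 cells 31 members had a wider peak than in progenitors, with a median width ratio of 1.14 for members and 1.03 for all genes. These counts of wider peaks are given without the shares of all genes. Depth sets how far a peak's flanks pass the caller's cutoff, and Seh1cKO cells were sequenced to 59.4% of the control day 1 depth. Progenitors were sequenced to 128% of it, and by median their peaks were also narrower than those of control day 1 cells. The part of depth in the widths was not tested.

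The widest peaks in control day 1 cells were those of Rpl34, Rps6 and Rpl7. Rpl34 measured 802 bp in Seh1cKO cells, 1293 bp in control day 1 cells and 1279 bp in progenitors. Rps6, the ribosomal protein phosphorylated by the kinase downstream of mTOR, measured 680, 1241 and 634 bp. Its pileup ratio of control day 1 cells to progenitors was 1.38 (0.971 to 1.97) and its fold enrichment ratio 0.762. Rpl7 was wide in all 3 libraries, at 1048, 1085 and 1013 bp. The narrowest in control day 1 cells were the weak gene-end peak of Rpl22, at 307 bp, that of Rpl6, at 357 bp, and those of Rpl13 and Rps15, at 414 bp each. Rpl13 measured 401 bp in Seh1cKO cells and 205 bp in progenitors. Rpl38, known in mice for its part in skeletal patterning, had the lowest width ratio of Seh1cKO to control day 1 cells, 0.297, with 284 bp against 956 bp.

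**Figure D4:**
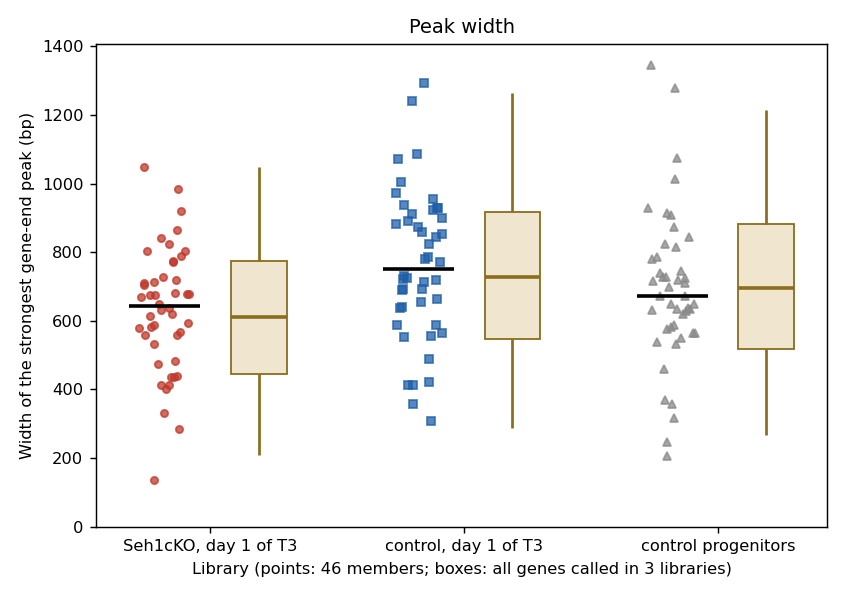
Width in bp of the gene-end peak of 46 ribosomal protein genes in each library (points; black line: their median of 642, 751 and 672.5 bp), beside all genes called in 3 libraries (box: quartiles, line: median, whiskers: 5th and 95th percentile). Members cover much of the same range as all genes in each library.

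Summits mostly lay close to the gene ends, and in most members they moved by at most 100 bp in each comparison. The median distance of the summit from the nearest gene end was 70 bp in Seh1cKO cells, 60.5 bp in control day 1 cells and 73 bp in progenitors, and 111, 126 and 127 bp over all genes called in 3 libraries. Within 200 bp of a gene end were 39, 36 and 38 of 46 summits, a count given without the share of all genes. The summit moved by a median of 44 bp between Seh1cKO and control day 1 cells and 27 bp between control day 1 cells and progenitors, against 54 and 62 bp for all genes. The shift was at most 100 bp in 36 members, 78.3%, for the first pair and in 37, 80.4%, for the second, and in 70.4% and 66.4% of all genes. The largest shift of the first pair, 636 bp, was at Rpl38, and that of the second, 819 bp, at Rpl22, where different peaks had been taken.

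Measured from the start of transcription, the median summit of the 39 members lay at −25 bp in Seh1cKO cells, −31 bp in control day 1 cells and −40 bp in progenitors, negative positions being upstream. For all genes with a start-site peak the medians were −28.5, −17 and −24 bp. Within 150 bp of the start were 35, 30 and 33 of 39 members, or 89.7%, 76.9% and 84.6%. Of all genes with a start-site peak the shares were 65.6%, 59.1% and 59.0%. The sets differ, since the peak covers the start in all 39 members but in 8216 of 9950, 8523 of 10779 and 8389 of 10659 of those genes. In each library 25 of the 39 summits lay upstream. Over all genes with a start-site peak, 5936 of 9950, 5913 of 10779 and 5963 of 10659 summits did, so most genes share this. Rps19 had its summit far upstream in all 3 libraries, at −322 bp in Seh1cKO cells, −398 bp in control day 1 cells and −309 bp in progenitors. Rps25, whose windows hold ends of Ccdc84 and Trappc4, was similar at −238, −400 and −304 bp. Rpl15 had −110, −180 and −170 bp, and Rps21 −126, −209 and −197 bp. Rpl38 went the other way in control day 1 cells, at 624 bp downstream, while its summit lay at −12 bp in Seh1cKO cells and −145 bp in progenitors.

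**Figure D5:**
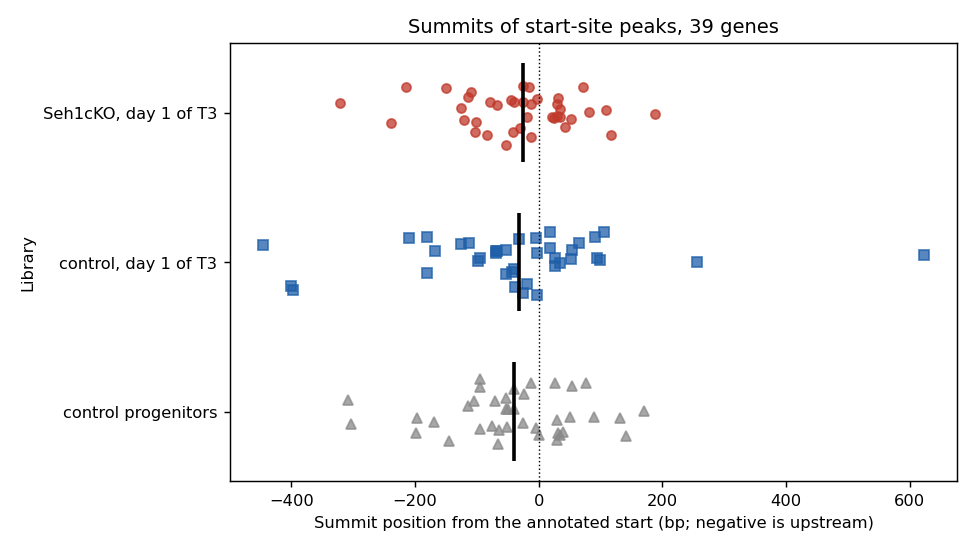
Position of the start-site summit of 39 ribosomal protein genes from the annotated start in bp (horizontal axis, negative is upstream), by library (points; black bars: medians of −25, −31 and −40 bp). Most points lie within 150 bp of the start in each library.

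Neighbouring genes share some of these peaks. The gene-end windows of 17 of 47 members held an annotated end of another protein-coding gene, 36.2%, against 24.8% of all protein-coding genes. Where a peak covers such an end, its pileup cannot be divided between the neighbours. Among the highest peaks, those of Rpl37 and Rpl15 cover the ends of Card6 and Nkiras1. Rps21 has an end of Cables2 in its windows, and Rps19 and Rps29 have no other gene's end there. Of the 16 members with the 4 highest or 4 lowest values of either ratio, 9 had another gene's end in their windows and 7 had none. The 9 include Rpl12 (Lrsam1), Rps18 (B3galt4 and Vps52), Rpl5 (Dipk1a) and Rpl10a (Tead3), and the 7 include Rps13, Rpl34 and Rps12. The peaks of Rpl12 and Rps18 cover the ends of Lrsam1 and Vps52. Small nucleolar RNAs, which guide modification of ribosomal RNA and are processed from introns of their host genes, lay inside 17 of 47 members, 36.2%, against 1.70% of all protein-coding genes. There were 32 of them, and Rpl4 held 5.

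The promoters were searched for 11 short motifs on both strands, over the 300 bases from 250 before the start to 50 from it, in the 39 members, in all 17492 promoters and in the 9621 with a start-site peak in all 3 libraries. The shares below are descriptions of letters, and a match is not evidence of binding. CCGGAA, the core of sites of ETS factors, was in 19 members, 48.7% (exact interval 32.4 to 65.2), in 19.1% of all promoters and in 29.6% of those with a peak. The longer CCGGAAGT, which contains it, was in 8 members, 20.5%, against 5.29% and 8.74%. In the runs printed above, for example, CCGGAA begins at position −62 from the start in Rpl15 and, as part of CCGGAAGT, at −23 in Rpl37. TGACGTCA, the palindrome of cAMP response elements, was in 4 members, 10.3%, against 2.34% and 3.69%.

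The palindrome CTCGCGAG was added after the sequences had been seen. It was in 4 members, 10.3%, against 1.30% and 2.16%. The 4 include Rpl12, where it begins at position −53, and Rps19, where it begins at −26 and −7. For the other motifs, shares are given in the same order, members first, then all promoters and those with a peak. GGGCGG, a core of Sp1 sites, was in 20 members, 51.3%, against 46.3% of all promoters and 68.6% of those with a peak. CCAAT was in 11 members, 28.2%, against 39.0% and 39.9%. TATAAA was in 1 member, 2.56%, against 13.3% and 6.28%, and that member was Rps2, with matches at −137 on the minus strand and 18 on the plus strand. Only these exact letters were counted, so a variant such as TATATAAG in the printed run of Rps18 was not. CACGTG was in 4 members, 10.3%, against 7.90% and 10.3%. GATGGC, a core of YY1 sites, was in 6 members, 15.4%, against 13.5% and 15.2%, and the longer AAGATGGC in 1, 2.56%, against 3.22% and 4.87%. GCATGCGC, from sites of NRF1, was in 1 member, 2.56%, against 3.61% and 5.89%.

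An annotated start with C followed by 4 pyrimidines, the form of a TOP tract, was found in 9 of 39 members, 23.1% (exact interval 11.1 to 39.3), against 2.17% of all promoters and 2.29% of those with a peak. These 9 were Rpl14, Rpl15, Rpl28, Rpl35, Rpl38, Rps6, Rps18, Rps21 and Rps27. The annotated starts were not checked against measured mRNA ends. In Rpl7a the listed first 5 bases are TTTCT, all pyrimidines without a leading C. Among the 9, Rpl15 and Rps21 had some of the highest peaks and Rps27 and Rpl38 stood lower, at 2.03 and 1.75 FPM in control day 1 cells. The median GC content of the 39 promoters was 58.3%, against 56.3% of all and 62% of those with a peak, and the median ratio of observed to expected CpG was 0.857 against 0.576 and 0.791.

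Other genes of the translation machinery were similar by the same rule. Of 36 further cytosolic ribosomal protein genes, 34 had a gene-end peak in Seh1cKO cells, 35 in control day 1 cells and 35 in progenitors, with median ratios of 1.05 for Seh1cKO over control day 1 cells and 1.43 for control day 1 cells over progenitors. All 37 translation factor genes were called in each library, with median ratios of 0.971 and 1.44. Of 42 ribosome biogenesis genes, 41 were called in each library, with median ratios of 1.02 and 1.36. Of 78 mitochondrial ribosomal protein genes, 71, 75 and 73 were called, with median ratios of 1.03 and 1.40. Higher by 1.5-fold or more in Seh1cKO than in control day 1 cells were 5, 2, 6 and 8 genes of these lists in the order given, and lower were 2, 1, 1 and 4. In control day 1 cells over progenitors 13, 16, 13 and 30 were higher and 0 of each list lower. Among all genes these shares were 9.04%, 8.69%, 38.7% and 1.65%.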

How the data were processed

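The members, the other gene lists and the motifs were chosen with earlier results of these data known. Open chromatin was measured in 3 libraries, and peaks were called in each separately. The submitters' processing notes list MACS2, Bowtie2, SAMtools and the build mm10. Per the file headers the caller was MACS 2.1.2_dev, run without an input library at a q of 0.05, with duplicates retained, gaps up to 50 bp, peaks of 100 bp or more and background taken over 10000 bp. Retained duplicates can raise a pileup. Any shift of reads for the transposase cut is not stated in the labels or headers.

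The authors' deposited tables give the pileup signal at each summit in whole fragments, the fold enrichment (a ratio of pileup to local background), and the −log10 of each peak's p-value and q-value. The −log10 column names were damaged and were identified by their place in the caller's column order. Such scores, all of them the authors' own, served to rank and describe peaks.

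Pileups were divided by the fragments in each file header, and scaled to 1000000 (FPM). Intervals for pileup ratios are exact conditional binomial and those for shares Clopper-Pearson, at 95%, and cover counting error only. Those for pileups take fragments as independent counts. They do not allow for retained PCR copies, which are not independent molecules, or for a summit picked in each library. Genes are named by a rule: no call or no common site, the 5 highest and 5 lowest by level, the 4 highest and 4 lowest by each ratio, the 3 widest, narrowest and farthest summits, and the nearest to the window bound. Other genes named for a role, a neighbour or a sequence were chosen after their values were seen. The picking and ratio steps were tested on simulated peaks. Gene ends, starts and promoter sequences came from RefSeq GRCm38.p6. Python 3.11.15, pandas 2.3.3, numpy 2.4.6, scipy 1.17.1 and matplotlib 3.10.9 were used.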

Additional observations from a re-analysis of the deposited data

How the results depend on the processing

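The medians and counts of members were recomputed with windows of 500 and 2000 bp, with the start of transcription alone, with a −log10 q minimum of 10, with the strongest peak taken by pileup, with a 50% overlap, and, for the ratios, with another scaling, with fold enrichment, and without members that share a window with another gene end. An alternative without the members whose gene-end peak is not their start-site peak was chosen after seeing the data. Medians were judged against the 95% order-statistic interval of the value reported, and counts of members against a 1.5-fold change. Of 64 such values 62 stayed within these bounds. The exceptions were the median ratio of control day 1 cells to progenitors, which was 0.991 when scaled by the median of genes called in all 3 libraries and 1.02 with fold enrichment, in place of 1.37. For the 28 named members 31 of 354 recomputed single ratios fell on the other side of 1, 11 of Seh1cKO over control day 1 cells and 20 of control day 1 cells over progenitors, and 336 of the 354 stayed within their counting interval. With fold enrichment 7 of 27 ratios of the first pair and 10 of 27 of the second crossed 1, and with the other scaling 1 and 10 of 27. The 500 bp window, the −log10 q minimum and the choice by pileup gave 0 crossings. Those settings mostly return the same peak, so the pooled share says little of a change of measure. Of the ratios that had been at least 1.5, 3 crossed 1, all of control day 1 cells over progenitors with fold enrichment, at 0.877 for Rpl38, 0.994 for Rpl7 and 0.958 for Rps19. With the start of transcription alone, the ratio of Seh1cKO to control day 1 cells was 1.58 for Rpl18 in place of 0.773, and with fold enrichment that of control day 1 cells to progenitors was 0.762 for Rps6 in place of 1.38. The cause was not tested. Leaving out a library was not possible with 1 per group. No paired analysis was possible because each group has 1 library and no test was made. Depth limits the Seh1cKO library most, since its members' pileups were as low as 10 fragments.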
